A study of Arabidopsis thaliana with 40 samples.

Results

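The comparison set out here is that of the *ubp12* and *ubp13* single mutants of *Arabidopsis thaliana* with each other, without passing through the wild type (wt). Its members were chosen by their genotype labels and are 6 of the 12 RNA-seq libraries (40 samples of all kinds make up the series), namely 3 *ubp12* libraries and 3 libraries labelled *ubp13*. Only nuclear genes were compared. *ubp12* carried the *ubp12-1* allele and *ubp13* the *ubp13-3* allele, each a T-DNA insertion represented by 1 line in the Col-0 background, and the study regards *ubp13-3* as a weak allele. Seedlings of both genotypes were raised for 15 days on 1/2 MS MES agar in long days without further treatment, and whole seedlings were collected 6 to 8 h after the lights came on. The series also holds wt (Col-0) and *ubp12/13* double mutant (*ubp12-1 ubp13-3*) libraries and ChIP-seq data, which enter here only as levels beside the called genes and as a list of peaks.

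*UBP12* and *UBP13* encode closely related ubiquitin-specific proteases that take ubiquitin off target proteins. One known target is histone H2A, whose monoubiquitinated form (H2Aub1) is set by Polycomb repressive complex 1. Others include regulators of the jasmonate response and of the circadian clock. Both proteins are regarded as largely redundant, so that a direct comparison of the single mutants asks which transcripts tell the 2 genotypes apart.

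Nuclear counts per library were 6822401 to 9109250 in *ubp12* and 10190084 to 12768034 in the libraries labelled *ubp13*, which were thus the deeper ones. Transcript levels are given as CPM, nuclear counts brought to a common library total with TMM factors. Leaf markers were abundant in all 6 libraries, floral organ markers summed to at most 7.22 CPM, and 9 of 11 seed markers had no count. Of 18 root markers, 4 had no count and only 3 passed the filter on low counts. Root hair, endodermis and root stem cell markers were at or near 0 in seedlings labelled as whole. All 18 root markers together summed to 168 to 194 CPM in *ubp12* and 157 to 253 CPM in the libraries labelled *ubp13*. With only 3 past the filter, few members carried these sums. The root content of the samples was not tested. In a principal component analysis, PC1 held 31.4% of the variance. The *ubp12* libraries scored -15.0, -0.543 and -26.8 on it, against 20.7, 25.2 and -3.49 for the libraries labelled *ubp13*. Replicate 3 labelled *ubp13* thus fell among the *ubp12* libraries. The root mean square log2 difference between libraries was 0.362 to 0.391 within *ubp12*, 0.297 to 0.390 within the libraries labelled *ubp13* and 0.365 to 0.430 between genotypes for libraries with different replicate numbers, so that the ranges overlapped.

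The targeted genes themselves were examined first. *UBP12* (AT5G06600, chr5:2019084-2028116 on TAIR10.1) had 25.2, 22.5 and 26.6 CPM in *ubp12*, against 91.4, 88.6 and 85.5 CPM in the libraries labelled *ubp13*. *UBP13* (AT3G11910, chr3:3760724-3770563) had 57.1, 62.0 and 60.2 CPM in *ubp12*, against 144, 164 and 148 CPM in the libraries labelled *ubp13*. Both genes were therefore lower in every *ubp12* library than in every library of the other mutant, including *UBP13*, the gene named in the label of that mutant. *UBP12* fell by 1.84 on the log2 scale (SE 0.10, edgeR quasi-likelihood test, adjusted p = 3.56e-05) and *UBP13* by 1.35 (SE 0.09, adjusted p = 2.44e-04). With all 12 libraries on a common scale, *UBP12* averaged 25.7 ± 2.2 CPM in *ubp12*, 91.5 ± 3.02 CPM in the libraries labelled *ubp13* and 99.2 ± 2.60 CPM in wt (SD, n = 3 each). *UBP13* averaged 62.0 ± 2.60 CPM in *ubp12*, 158 ± 11.6 CPM in the libraries labelled *ubp13* and 63.3 ± 0.790 CPM in wt (SD, n = 3 each). In *ubp12/13*, which carries *ubp13-3* as well, *UBP13* averaged 79.2 ± 1.74 CPM, also above wt, and *UBP12* averaged 32.5 ± 4.84 CPM. *UBP13* was thus higher, not lower, than wt in the libraries labelled *ubp13*, and whether that label holds cannot be read from its counts. *UBP12* was lower than wt in *ubp12*. The counts are per gene and do not show which stretch of *UBP13* was transcribed, and for this reason the groups are called by their labels throughout. Directions given below are those of *ubp12* relative to libraries so labelled.

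Because *UBP12* and *UBP13* resemble each other, reads might be shared between them. Among 50-base words of their exons, the read length used, 0 of 2944 words of *UBP12* occurred in *UBP13*. The longest stretch of exon sequence that both genes share without a mismatch was 38 bases long. It is printed below within a window of 118 bases of each gene, because it shows how far a read could be mistaken. Capitals mark the 103 bases that are identical at the same position in both.
UBP12 (chr5:2025943-2026060, minus strand): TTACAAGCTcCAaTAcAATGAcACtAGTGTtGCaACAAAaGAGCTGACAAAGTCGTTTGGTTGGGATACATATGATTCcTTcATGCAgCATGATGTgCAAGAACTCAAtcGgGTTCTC
UBP13 (chr3:3768438-3768555, minus strand): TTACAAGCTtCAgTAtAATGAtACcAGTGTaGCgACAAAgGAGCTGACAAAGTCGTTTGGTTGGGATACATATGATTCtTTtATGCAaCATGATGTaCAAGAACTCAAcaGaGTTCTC
The window falls within an exon of each gene and reads 5' to 3' along the transcript, from the TAIR10.1 genome. Even around the longest shared run, a read of 50 bases covered at least 1 mismatch. *UBP13* overlaps AT3G11900 on the opposite strand, and since the library kit does not mark strand, reads from the overlap cannot be assigned to either gene.

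To compare the paralogs with each other, CPM were divided by exon length. Per kb of exon, *UBP12* had 5.55 ± 0.464 CPM and *UBP13* had 13.1 ± 0.541 CPM in *ubp12*, whereas *UBP12* had 19.8 ± 0.658 CPM and *UBP13* had 33.3 ± 2.34 CPM in the libraries labelled *ubp13* (SD, n = 3 each). *UBP13* was thus the more abundant transcript in both mutants. In wt the order was the other way, with 99.2 CPM for *UBP12* and 63.3 CPM for *UBP13* on the 12-library scale. These wt values are not divided by exon length, which was 4463 bases for *UBP12* and 4567 for *UBP13*. The sum of both came to 18.6 ± 0.486 CPM per kb in *ubp12*, against 53.2 ± 2.32 CPM per kb in the libraries labelled *ubp13*, a ratio of 0.351. The 2 genotypes therefore differed in the summed transcript level of the pair. Among 25 tested genes of the UBP deubiquitinase family, *UBP12* and *UBP13* were the only ones called, and the other 23 had an unadjusted p above 0.05 in the edgeR quasi-likelihood test.

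**Figure D1:**
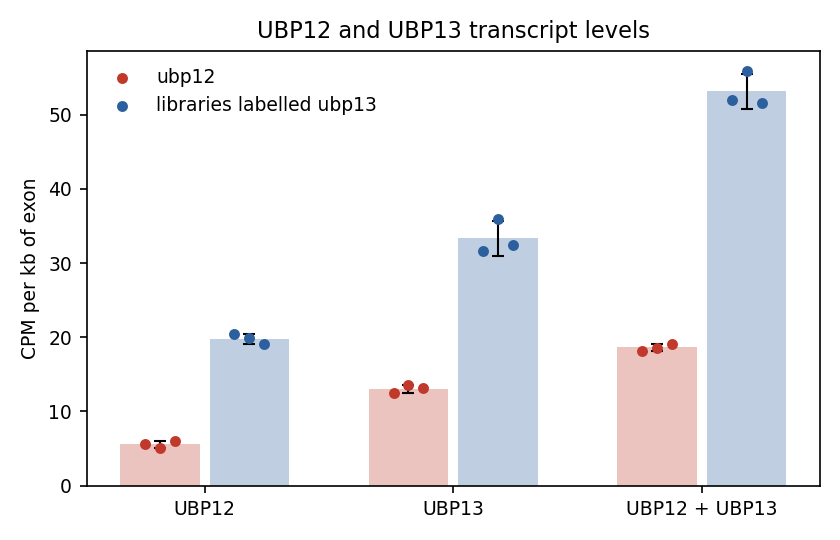
Transcript levels of UBP12, UBP13 and their sum in CPM per kb of exon. Points are libraries, bars are means and error bars are SD (n = 3 each); ubp12 libraries sum to 18.6 CPM per kb on average, against 53.2 in the libraries labelled ubp13, with no overlap for either gene.

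Few genes told the single mutants apart. The filter kept 17620 nuclear genes, those whose CPM exceeded 1 in 2 or more of the 6 libraries. Of these, 11 were higher (0.0624% of those tested) and 7 were lower (0.0397%) in *ubp12* than in the libraries labelled *ubp13*, at an adjusted p under 0.05 in the edgeR quasi-likelihood test and an absolute log2 fold change (log2FC, *ubp12* over *ubp13*) of at least 1. These 18 calls (0.102%) comprise 15 protein-coding genes, 2 pseudogenes and 1 lncRNA, and in none of them did the libraries of both genotypes overlap. Over all genes, every *ubp12* library lay above every library labelled *ubp13* in 6.34% and below in 6.54%. Without a minimum fold, 18 genes were higher (0.102%) and 12 lower (0.0681%). At an unadjusted p under 0.05 there were 787 higher (4.47%) and 657 lower genes (3.73%). The median log2FC of all genes was -0.00, with quartiles of -0.11 and 0.12.

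The labels do not say whether equal replicate numbers mark a shared batch. Libraries of the same number deviated weakly together from their genotype means (correlations across genes of 0.161, 0.101 and 0.223 for numbers 1, 2 and 3). On these correlations alone the number was used as a block, and 77 genes were then called higher (0.437%) and 17 lower (0.0965%). All 18 calls of the fit without block were among these 94, and in 74 of the 94 the libraries of both genotypes did not overlap. The counts also rested on single libraries. Without *ubp12* replicate 1, 2 or 3 there were 4, 35 or 19 higher genes, and without replicate 1, 2 or 3 labelled *ubp13* there were 3, 13 or 36. Lower genes varied less, between 5 without *ubp12* replicate 1 and 13 without replicate 3 labelled *ubp13*, the library that fell among *ubp12* on PC1.

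**Figure D2:**
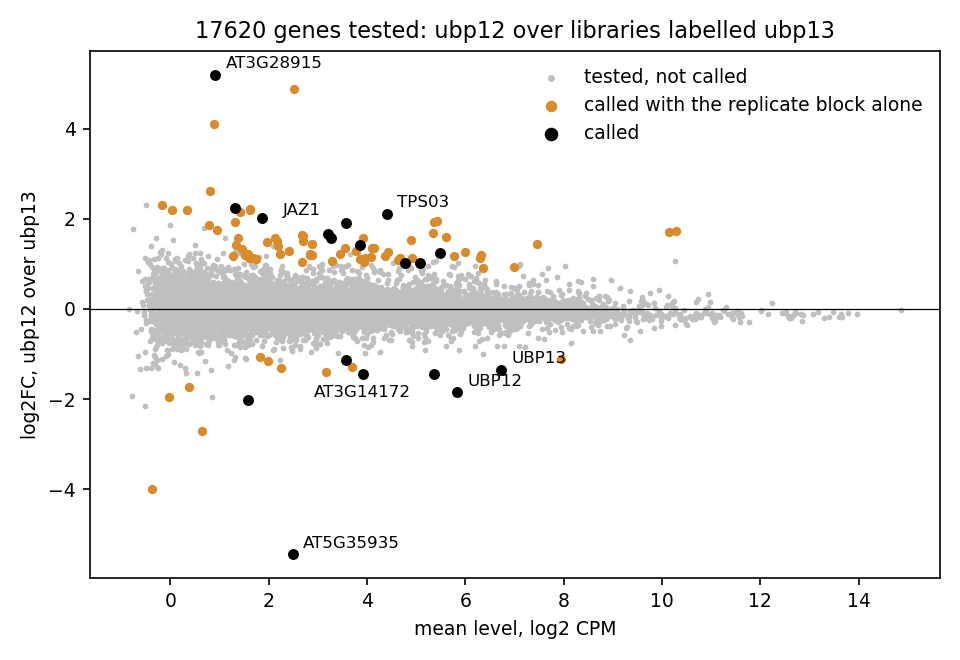
log2FC of ubp12 over libraries labelled ubp13 (vertical axis) against mean level in log2 CPM (horizontal axis) for the 17620 genes tested. Black points are the 18 called genes, orange points are genes called only with the replicate number as a block, and most genes lie close to 0.

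The lower genes are described first. The largest log2FC among them was at AT5G35935, annotated as a pseudogene (chr5:14083388-14089891). It had 0.108, 0.338 and 0.292 CPM in *ubp12*, against 10.2, 10.1 and 12.5 CPM in the libraries labelled *ubp13*. In counts this was 6 in all *ubp12* libraries together and 376 in those labelled *ubp13*, a level 45.2-fold higher in the libraries labelled *ubp13* (95% exact interval 20.6 to 124, counting error only; edgeR adjusted p = 3.56e-05). On the common scale of 12 libraries, *ubp12/13* held 6.45 ± 1.25 CPM and wt 0.0885 ± 0.0803 CPM (SD, n = 3 each), so that the transcript was present in both genotypes labelled with *ubp13-3* and nearly lacking in *ubp12* and wt. Of its 50-base words, 99.8% occurred once in the genome.

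A pair of neighbours on chromosome 3 was also lower in *ubp12*. AT3G14172, encoding a GPI-anchored adhesin-like protein, had 20.5, 25.6 and 20.2 CPM in *ubp12*, against 59.7, 61.3 and 60.8 CPM in the libraries labelled *ubp13*. It fell by 1.45 on the log2 scale (SE 0.11, adjusted p = 3.49e-04). AT3G14170, which encodes a DUF936 protein and lies next to it, had 7.33, 8.11 and 6.72 CPM in *ubp12*, against 18.1, 16.0 and 15.0 CPM, and fell by 1.14 (SE 0.13, adjusted p = 0.00793). Both were lower in every *ubp12* library than in any library labelled *ubp13*. Between gene starts they lie 0.938 and 0.935 Mb from *UBP13*. On the 12-library scale, AT3G14172 averaged 22.9 ± 3.11 CPM in *ubp12*, 62.7 ± 1.03 CPM in the libraries labelled *ubp13*, 34.6 ± 2.46 CPM in *ubp12/13* and 19.7 ± 0.764 CPM in wt. AT3G14170 averaged 7.66 ± 0.705, 16.9 ± 1.62, 4.75 ± 1.06 and 8.95 ± 2.45 CPM in the same order. In the double mutant AT3G14172 was thus above wt, whereas AT3G14170 was below it. Of 862 other genes tested within 2 Mb of *UBP13*, these were the 2 called (0.232%), and 0 of 823 within 2 Mb of *UBP12* were called, beside 0.102% of all genes tested. With so few calls no difference between the windows can be read from these counts. AT3G14170 lost its call without *ubp12* replicate 1 (edgeR adjusted p = 0.0778) and without replicate 1 labelled *ubp13* (adjusted p = 0.0641).

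For the remaining lower genes, wt stood with the libraries labelled *ubp13*. AT2G44970, an alpha/beta-hydrolase, had 8.30, 6.64 and 9.64 CPM in *ubp12*, against 23.3, 23.0 and 19.6 CPM in the libraries labelled *ubp13* (log2FC -1.43, SE 0.15, edgeR adjusted p = 0.00385). On the 12-library scale it averaged 8.50 ± 1.58 CPM in *ubp12*, 22.7 ± 2.15 CPM in the libraries labelled *ubp13*, 26.1 ± 1.77 CPM in *ubp12/13* and 21.1 ± 0.284 CPM in wt. The lncRNA AT3G29644 had 1.08, 1.13 and 1.31 CPM in *ubp12*, against 4.62, 4.61 and 5.12 CPM (log2FC -2.03, SE 0.22, adjusted p = 0.00714), and averaged 4.13 ± 0.863 CPM in *ubp12/13* and 4.79 ± 0.291 CPM in wt. Both transcripts were thus lower in *ubp12* than in the other 3 genotypes, including the double mutant, which carries *ubp12-1* as well. AT3G29644 overlaps AT3G29642 on the opposite strand, so their reads cannot be told apart, and its call was lost without *ubp12* replicate 1 (adjusted p = 0.0544). Below the minimum fold, the genes with the smallest p were *BXL2*, AT5G06980 and AT5G48490. *BXL2* encodes a beta-xylosidase (log2FC -0.83, edgeR adjusted p = 0.0219). AT5G06980, whose product the annotation used here leaves uncharacterised, lies 0.148 Mb from *UBP12* (log2FC -0.83, adjusted p = 0.00955). AT5G48490 is a lipid-transfer protein family member (log2FC -0.67, adjusted p = 0.0193). *BXL2* had 18.9, 22.9 and 23.2 CPM in *ubp12*, against 35.1, 39.0 and 41.3 CPM in the libraries labelled *ubp13*. AT5G06980 had 35.1, 33.9 and 35.9 CPM in *ubp12*, against 59.9, 69.1 and 57.0 CPM, and it overlaps AT5G06990 on the same strand. All 3 lost an adjusted p under 0.05 without *ubp12* replicate 1 (0.117 for *BXL2*, 0.0895 for AT5G06980 and 0.128 for AT5G48490) and without replicate 1 labelled *ubp13* (0.0641, 0.0641 and 0.122). *BXL2* and AT5G48490 also lost it without replicate 2 labelled *ubp13* (0.074 each), and *BXL2* in the common fit of 12 libraries (0.148).

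**Figure D3:**
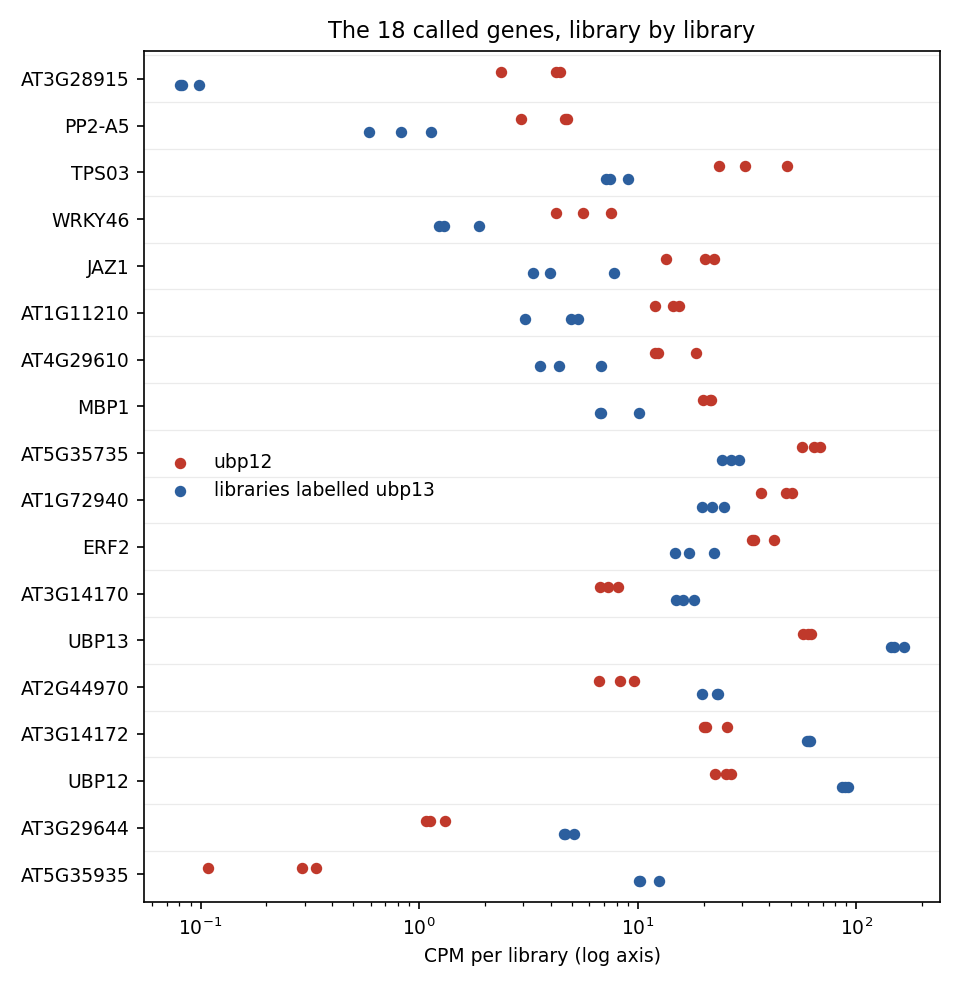
CPM of the 18 called genes in each library, on a log axis, with ubp12 above the libraries labelled ubp13 in each row and genes ordered by log2FC. The libraries of both genotypes do not overlap in any row; AT3G28915 at the top and AT5G35935 at the bottom are near 0 in one genotype.

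Among the 11 higher genes, AT3G28915 was an isolated case, with a near absence of counts in the other mutant. This pseudogene (chr3:10917551-10922630) had 2.37, 4.39 and 4.24 CPM in *ubp12*, against 0.0825, 0.0809 and 0.0984 CPM in the libraries labelled *ubp13*. There were 90 counts in *ubp12* and 3 in the libraries labelled *ubp13*, a ratio of 41.6 (95% exact interval 13.8 to 205, counting error only; edgeR adjusted p = 0.00221). On the 12-library scale *ubp12/13* held 0.225 ± 0.0718 CPM and wt 0.0523 ± 0.0905 CPM, so the transcript was present in the *ubp12* single mutant but at no comparable level in the double mutant.

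The other 10 higher genes are protein-coding, and among the gene lists described below only that of jasmonate genes held one of them, *JAZ1*. *JAZ1*, a repressor of jasmonate signalling that is itself induced by jasmonate, had 20.3, 13.4 and 22.2 CPM in *ubp12*, against 3.96, 3.32 and 7.77 CPM in the libraries labelled *ubp13*. *TPS03*, the terpene synthase that makes the volatile ocimene, had 48.4, 23.4 and 31.0 CPM in *ubp12*, against 7.43, 9.07 and 7.18 CPM. Both were higher in every *ubp12* library, with a log2FC of 1.91 for *JAZ1* (SE 0.29, edgeR adjusted p = 0.0415) and of 2.12 for *TPS03* (SE 0.24, adjusted p = 0.00793). *WRKY46*, a transcription factor of defence and stress responses, had 7.55, 5.63 and 4.24 CPM in *ubp12*, against 1.24, 1.3 and 1.87 CPM (log2FC 2.01, SE 0.28, adjusted p = 0.0219). *ERF2*, an ethylene response factor, had 42.1, 34.0 and 33.2 CPM in *ubp12*, against 14.9, 22.3 and 17.1 CPM (log2FC 1.01, SE 0.16, adjusted p = 0.0417). *MBP1*, a myrosinase-binding protein of the glucosinolate defence system, had 21.5, 21.6 and 19.9 CPM in *ubp12*, against 6.69, 6.80 and 10.1 CPM (log2FC 1.43, SE 0.16, adjusted p = 0.00714). All 5 genes thus separated the genotypes in every library, although the spread within *ubp12* was wide for *TPS03*.

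The remaining 5 had other annotations. *PP2-A5*, a lectin-like protein of the phloem protein 2 family, was the lowest of them, with 4.64, 4.73 and 2.92 CPM in *ubp12* and 0.825, 1.13 and 0.590 CPM in the libraries labelled *ubp13* (log2FC 2.25, SE 0.31, edgeR adjusted p = 0.0219). AT5G35735, annotated as an auxin-responsive family protein, was the most abundant, with 68.2, 64.1 and 56.7 CPM in *ubp12* and 24.2, 29.1 and 26.7 CPM in the libraries labelled *ubp13* (log2FC 1.24, SE 0.11, adjusted p = 0.00127). AT1G11210 (DUF761; log2FC 1.66, adjusted p = 0.00955), AT4G29610 (cytidine deaminase family; log2FC 1.57, adjusted p = 0.0452) and AT1G72940 (TIR domain protein; log2FC 1.02, adjusted p = 0.0219) complete the group. AT1G11210 had 15.4, 11.9 and 14.5 CPM in *ubp12*, against 3.05, 4.94 and 5.31 CPM in the libraries labelled *ubp13*. AT4G29610 had 18.4, 12.0 and 12.4 CPM in *ubp12*, against 4.37, 3.56 and 6.79 CPM. Their lowest *ubp12* library was above the highest of the libraries labelled *ubp13* in each case. AT1G72940 had 50.8, 36.5 and 47.8 CPM in *ubp12*, against 21.8, 24.9 and 19.6 CPM. For AT1G72940, 87.6% of 50-base words occurred once in the genome, the lowest share among the called genes.

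Several of these calls depended on single libraries. Without *ubp12* replicate 1, *PP2-A5*, *WRKY46*, *JAZ1*, AT1G11210, AT4G29610, *MBP1*, AT1G72940 and *ERF2* were no longer called, with edgeR adjusted p between 0.0524 (*MBP1*) and 0.179 (*JAZ1*, AT4G29610 and *ERF2*). Without replicate 1 labelled *ubp13*, *TPS03* (adjusted p = 0.0820) and *MBP1* (adjusted p = 0.0641) were among 8 lost, and *JAZ1* and AT4G29610 reached 0.267. *JAZ1*, AT4G29610, AT1G72940 and *ERF2* were also lost without *ubp12* replicate 3 (adjusted p = 0.0655 to 0.107), *WRKY46*, *JAZ1* and AT4G29610 without replicate 2 labelled *ubp13* (0.0878 to 0.123), and AT1G72940 and *ERF2* without replicate 3 labelled *ubp13*, where their log2FC were 0.95 and 0.98. The log2FC kept its sign each time. AT5G35735 and AT3G28915 were called without any of the 6 libraries in turn.

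Levels in wt and in *ubp12/13* were placed beside the calls, as means on the 12-library scale without a test. Distances were taken on the log2 scale. Of the 11 higher genes, wt was nearer to the libraries labelled *ubp13* than to *ubp12* in 10, *WRKY46* being the exception, and of the 7 lower genes in 3. Over all genes tested the share was 61.3%. *JAZ1* averaged 19.3 ± 4.83 CPM in *ubp12*, 5.19 ± 2.48 CPM in the libraries labelled *ubp13*, 60.4 ± 9.72 CPM in *ubp12/13* and 5.16 ± 1.24 CPM in wt (SD, n = 3 each). *MBP1* averaged 21.8 ± 0.945 CPM in *ubp12*, 8.14 ± 2.01 CPM in the libraries labelled *ubp13*, 686 ± 59.9 CPM in *ubp12/13* and 9.93 ± 1.47 CPM in wt. For both genes the double mutant lay far above both single mutants. *TPS03* ran the other way, with 35.5 ± 13.2 CPM in *ubp12*, 8.16 ± 1.09 CPM in the libraries labelled *ubp13*, 2.37 ± 0.481 CPM in *ubp12/13* and 5.56 ± 3.27 CPM in wt.

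The sequences upstream of the higher genes were searched for the G-box (CACGTG), the GCC-box (GCCGCC) and the core of the evening element (AAATATCT), which are bound by bHLH and bZIP factors, by ethylene response factors and by clock-associated MYB factors. The 250 bases before the annotated gene start were read on both strands, and none of the motifs contains another. The G-box stood in 3 of the 10 protein-coding genes called higher, against 7.44% of 17240 tested protein-coding genes, the evening element in 2 of 10, against 5.14%, and the GCC-box in 0 of 10, against 1.94%. The 3 promoters with a G-box are shown first, with the motif in capitals.
ERF2 (chr5:19172957-19173206, minus strand): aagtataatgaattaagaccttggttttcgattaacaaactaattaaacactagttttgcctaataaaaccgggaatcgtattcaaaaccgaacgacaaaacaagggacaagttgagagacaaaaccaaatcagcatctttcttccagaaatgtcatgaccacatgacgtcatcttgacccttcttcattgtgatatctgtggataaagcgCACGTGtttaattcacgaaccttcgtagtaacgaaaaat
MBP1 (chr1:19352792-19353041, minus strand): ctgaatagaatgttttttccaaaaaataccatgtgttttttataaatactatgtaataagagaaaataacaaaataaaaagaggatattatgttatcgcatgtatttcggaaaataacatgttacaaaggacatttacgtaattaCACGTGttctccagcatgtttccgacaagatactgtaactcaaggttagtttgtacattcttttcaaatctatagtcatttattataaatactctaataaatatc
AT1G11210 (chr1:3756999-3757248, minus strand): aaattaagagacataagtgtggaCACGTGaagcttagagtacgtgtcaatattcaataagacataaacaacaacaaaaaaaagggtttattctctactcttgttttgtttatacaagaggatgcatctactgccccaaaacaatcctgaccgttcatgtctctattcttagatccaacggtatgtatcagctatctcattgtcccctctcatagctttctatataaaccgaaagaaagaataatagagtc
The evening element, in either orientation, is in capitals in the promoters of the 2 called genes that hold it and in that of the clock gene *FKF1*, which holds it at 2 places and is described below.
TPS03 (chr4:9407361-9407610, plus strand): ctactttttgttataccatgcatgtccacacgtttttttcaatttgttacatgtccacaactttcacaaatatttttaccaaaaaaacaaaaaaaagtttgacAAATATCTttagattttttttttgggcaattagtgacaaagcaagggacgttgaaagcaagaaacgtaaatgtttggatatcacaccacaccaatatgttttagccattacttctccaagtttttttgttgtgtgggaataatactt
AT4G29610 (chr4:14517143-14517392, plus strand): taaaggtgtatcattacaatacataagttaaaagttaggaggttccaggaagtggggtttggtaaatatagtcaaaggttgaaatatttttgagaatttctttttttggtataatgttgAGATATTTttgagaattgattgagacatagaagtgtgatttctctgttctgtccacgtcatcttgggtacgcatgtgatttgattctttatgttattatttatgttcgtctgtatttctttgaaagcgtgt
FKF1 (chr1:25508389-25508638, plus strand): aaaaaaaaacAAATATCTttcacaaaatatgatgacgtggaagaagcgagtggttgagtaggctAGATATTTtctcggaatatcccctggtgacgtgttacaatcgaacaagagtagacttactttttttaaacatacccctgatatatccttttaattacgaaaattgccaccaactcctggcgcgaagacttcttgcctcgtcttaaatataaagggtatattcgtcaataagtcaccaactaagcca
All coordinates are from TAIR10.1, and each sequence runs 5' to 3' towards its gene. *JAZ1*, *WRKY46*, *PP2-A5*, AT5G35735 and AT1G72940 held none of these motifs in the window. With the replicate block, 11 of 69 protein-coding genes called higher held the evening element (15.9%) and 7 the G-box (10.1%).

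Gene lists were then described, beginning with the circadian clock, in which morning-phased MYB factors and evening-phased pseudo-response regulators repress each other. Of its 21 tested genes, 8 passed the test in the fit with the replicate block, in both directions. Without the block, 7 of 21 genes were higher and 4 lower at an unadjusted p under 0.05 in the edgeR test (all genes 4.47% and 3.73%), but none was called, the smallest adjusted p being that of *FKF1* (0.0523). With the block, 5 were higher (*FKF1*, *PRR3*, *PRR5*, *ELF3* and *TOC1*) and 3 lower (*LHY*, *CCA1* and *LNK2*) at an adjusted p under 0.05 (all genes 1.29% and 0.743%). The median of the list was 0.00 and that of all genes -0.00. The counts at an unadjusted p stayed at 6 or 7 higher and 4 to 6 lower when each library was left out in turn.

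*FKF1*, a blue light receptor of the day length response, had 21.0, 27.6 and 19.6 CPM in *ubp12*, against 5.53, 11.6 and 5.51 CPM in the libraries labelled *ubp13* (log2FC 1.58, SE 0.26, edgeR adjusted p = 1.99e-04 with the block). Here and below, log2FC and SE are those of the fit without the block. *TOC1*, an evening repressor of the morning loop, had 36.7, 44.2 and 44.8 CPM in *ubp12*, against 29.1, 29.3 and 29.7 CPM (log2FC 0.51, SE 0.10, adjusted p = 0.0168 with the block). *PRR5* (log2FC 0.78, adjusted p = 0.00530 with the block), *PRR3* (0.98, 0.0334) and *ELF3*, a subunit of the evening complex (0.52, 0.0311), rose too under the block, while *LUX*, another subunit (0.49, 0.0531), and *GI* (0.33, 0.107) did not pass. *PRR5* levels overlapped between the genotypes, with 89.6, 98.4 and 64.3 CPM in *ubp12* and 38.9, 73.9 and 34.3 CPM in the libraries labelled *ubp13*. Replicate 2 was the highest for *PRR5* and *FKF1* in both genotypes. *LHY*, a morning-phased MYB factor, had 2.48, 3.26 and 2.48 CPM in *ubp12*, against 7.84, 7.77 and 4.82 CPM in the libraries labelled *ubp13* (log2FC -1.31, SE 0.24, adjusted p = 0.00542 with the block). *CCA1*, its paralog, had 49.7, 41.8 and 53.5 CPM in *ubp12*, against 75.6, 77.9 and 58.4 CPM (log2FC -0.55, SE 0.13, adjusted p = 0.0448 with the block). *LNK2*, a coactivator, fell as well (log2FC -0.50, adjusted p = 0.0486 with the block), and the MYB factor *RVE8* was lower in all *ubp12* libraries without passing (log2FC -0.57, 0.113). For each of these 4 genes, replicate 3 was the lowest of the libraries labelled *ubp13* and the closest to *ubp12*. *ELF4*, *ZTL*, *PRR7*, *CHE* and *RVE6* had log2FC between -0.06 and 0.03 and overlapping libraries. *FKF1*, *ELF3*, *LUX* and *LNK2* overlap genes on the opposite strand, whose reads cannot be told apart from theirs.

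**Figure D4:**
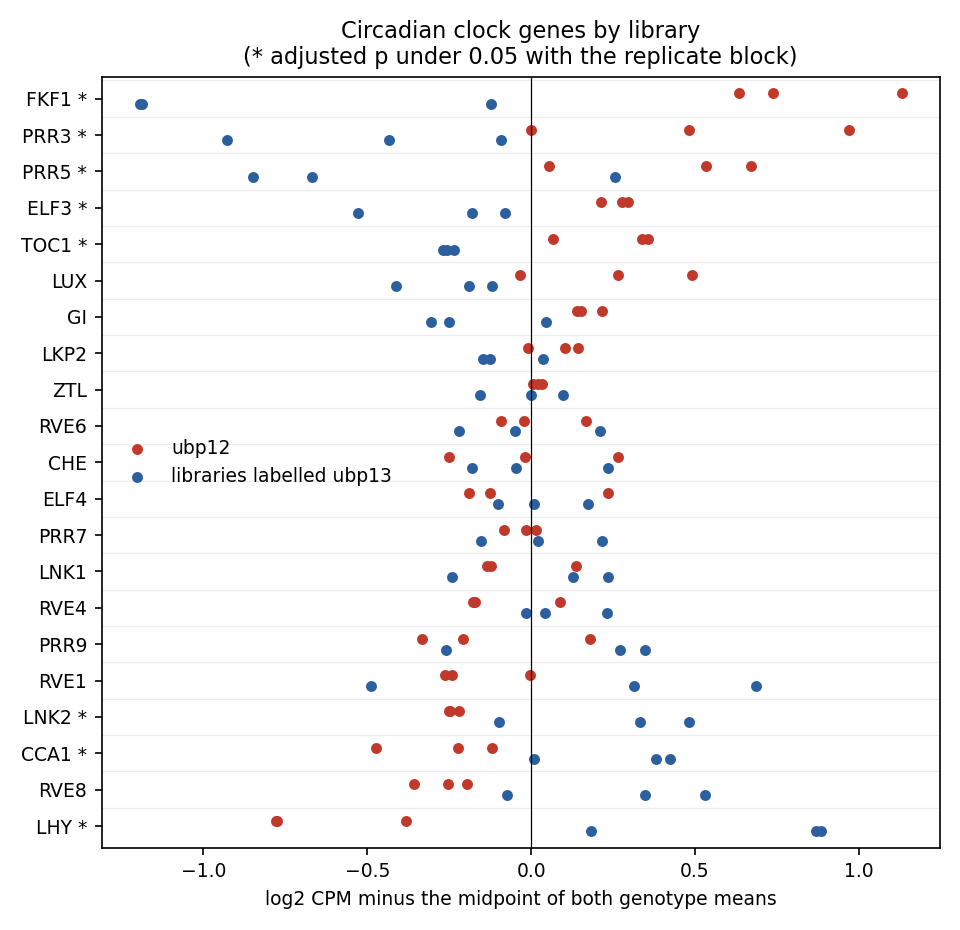
log2 CPM of 21 circadian clock genes in each library, relative to the midpoint of both genotype means, with ubp12 above the libraries labelled ubp13 in each row. Stars mark an adjusted p under 0.05 with the replicate block, which 5 genes reached with ubp12 higher (FKF1, PRR3, PRR5, ELF3, TOC1) and 3 with ubp12 lower (LHY, CCA1, LNK2).

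Genes of jasmonate synthesis and signalling mostly had higher means in *ubp12*. Of 26 tested members (29 listed), 22 had a log2FC above 0 (all genes 49.5%) and the median was 0.35 (all genes -0.00). At an unadjusted p under 0.05, 11 were higher (all genes 4.47%) and 0 lower, and *JAZ1* was the only call. With the replicate block, 8 were higher at an adjusted p under 0.05 (all genes 1.29%) and 0 lower (all genes 0.743%). *MYC2*, the main transcription factor of the pathway and a reported partner of UBP12 and UBP13, had 121, 61.5 and 108 CPM in *ubp12*, against 40.1, 55.3 and 55.8 CPM in the libraries labelled *ubp13* (log2FC 0.94, SE 0.22, adjusted p = 0.0309 with the block). The lipoxygenase gene *LOX2*, which acts at the first step of jasmonate synthesis, had 254, 225 and 237 CPM in *ubp12*, against 112, 84.6 and 220 CPM (log2FC 0.78, adjusted p = 0.0289 with the block). *LOX3* (log2FC 0.91, adjusted p = 0.00480), *LOX4* (1.35, 0.00120), *OPR3* (0.49, 0.0285), *JAZ5* (1.23, 0.0415) and the storage protein gene *VSP2* (0.65, 0.00724) were the others that passed with the block. For *OPR3*, *VSP2*, *LOX4* and *JAZ5* the libraries of both genotypes overlapped. *COI1*, the jasmonate receptor, and *MYC3* and *MYC4* had log2FC between -0.05 and 0.02. In *ubp12*, replicate 2 was the lowest library for *JAZ1*, *MYC2*, *LOX3*, *LOX4*, *JAZ5* and *VSP2*. Without *ubp12* replicate 1 or 3, the count at an unadjusted p was 7 or 6, and without replicate 1 or 2 labelled *ubp13* it was 5 each. The median was 0.14 without *ubp12* replicate 3 and 0.18 without replicate 1 labelled *ubp13*.

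Abscisic acid and dehydration genes showed a similar tilt, with more dependence on single libraries. Of 27 tested members, 23 had a log2FC above 0 (all genes 49.5%), the median was 0.40 (all genes -0.00), and 10 were higher (all genes 4.47%) and 0 lower (3.73%) at an unadjusted p under 0.05. None was called without the block. With it, 4 were called higher (all genes 0.437%). These were *CYP707A3*, which encodes an abscisic acid hydroxylase (log2FC 1.1, adjusted p = 0.0193), *KIN1* (1.06, 0.0201), *KIN2* (0.93, 0.0140) and *COR15A* (1.13, 0.0252), the last 3 of them cold and dehydration induced. *COR15A* had 155, 59.0 and 111 CPM in *ubp12*, against 34.0, 28.8 and 86.9 CPM in the libraries labelled *ubp13*, so that the genotypes overlapped. *KIN2* had 197, 130 and 170 CPM in *ubp12*, against 61.8, 63.2 and 137 CPM, and overlapped too. In both, *ubp12* replicate 2 was the lowest of its genotype and replicate 3 the highest of those labelled *ubp13*. The median of the list was 0.12 without *ubp12* replicate 1 and 0.72 without *ubp12* replicate 2. The count at an unadjusted p was 4 and 19 in these cases, 6 without *ubp12* replicate 3 or without replicate 1 labelled *ubp13*, 5 without replicate 2 and 15 without replicate 3 so labelled.

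**Figure D5:**
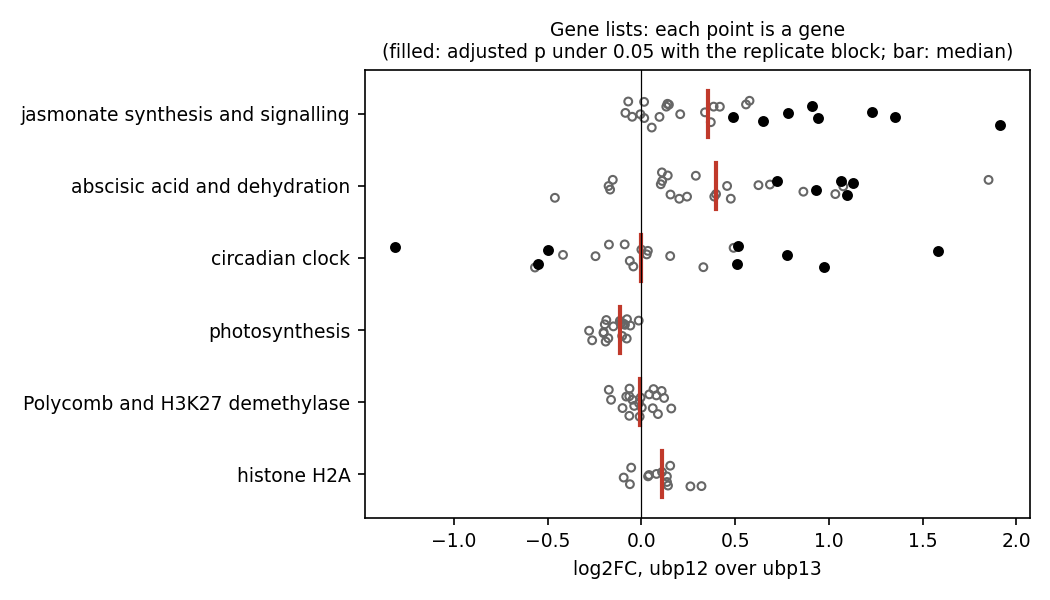
log2FC of ubp12 over libraries labelled ubp13 for the tested members of 6 gene lists, 1 point a gene, with the list median as a bar; filled points have an adjusted p under 0.05 with the replicate block. Medians are 0.35 for jasmonate, 0.40 for abscisic acid and dehydration, 0.00 for the clock, -0.11 for photosynthesis, -0.01 for Polycomb and 0.11 for histone H2A genes.

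No difference was detected in Polycomb genes. Of 21 tested Polycomb and H3K27 demethylase genes, none had an unadjusted p under 0.05 (all genes 8.2%), and their log2FC ranged from -0.17 (*JMJ13*) to 0.16 (*BMI1A*), with a median of -0.01. *REF6*, an H3K27 demethylase, had 26.3, 22.1 and 24.0 CPM in *ubp12* and 26.2, 25.2 and 24.2 CPM in the libraries labelled *ubp13*. *CLF*, an H3K27 methyltransferase, had 12.5, 11.7 and 10.7 CPM in *ubp12* and 11.6, 9.79 and 12.2 CPM in the libraries labelled *ubp13*. In both genes the libraries of the genotypes overlapped. None of the 13 histone H2A genes was called. Their median was 0.11, 10 had a log2FC above 0 (all genes 49.5%) and 2 were higher at an unadjusted p under 0.05 (all genes 4.47%), *HTA5* (log2FC 0.32, adjusted p = 0.402) and *HTA1* (log2FC 0.26, adjusted p = 0.595). The 13 reported partners and substrates of UBP12 and UBP13 had log2FC from -0.41 to 0.94. At an unadjusted p under 0.05 in the edgeR test, 3 were higher (all genes 4.47%) and 1 lower (all genes 3.73%). Only *MYC2* passed with the block (all genes 1.29% higher and 0.743% lower), and *ZTL*, *CRY2*, *COP1*, *BZR1* and *DA1* had log2FC between -0.04 and 0.03.

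No photosynthesis gene was called, although 2 (*RBCS2B* and *RBCS3B*, both encoding small subunits of Rubisco) were lower at an unadjusted p under 0.05. All 19 had a log2FC below 0, between -0.28 and -0.01, with a median of -0.11 (all genes -0.00), and in 10 of them all *ubp12* libraries lay below all libraries labelled *ubp13* (all genes 6.54%). The block added no call, and the median was -0.07 when libraries were scaled by their totals. Their summed level was 164993 to 176801 CPM in *ubp12*, against 180167 to 189804 CPM in the libraries labelled *ubp13*. Without scaling by TMM they took 16.8% to 17.7% of the nuclear counts in *ubp12* and 17.7% to 18.5% in the libraries labelled *ubp13*, and these ranges overlapped. Lists of flowering time, heat shock, phosphate starvation and flavonoid genes had no member with an unadjusted p under 0.05 (all genes 8.2%). Of 11 tested salicylic acid and immunity genes 1 was higher at that level (all genes 4.47%). Of 10 senescence genes 1 was higher and 2 lower (all genes 4.47% and 3.73%). *WRKY53* was called higher with the block (log2FC 1.48, edgeR adjusted p = 0.00765, all genes 0.437%), with overlapping libraries. Only 2 of 9 jasmonate and ethylene defence output genes were expressed enough to be tested, and 1 of them, *PR4* (log2FC -0.77, adjusted p = 0.419), had an unadjusted p under 0.05.

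Ribosomal RNA counts varied mostly within *ubp12*, being high in replicates 1 and 2 and close to the libraries labelled *ubp13* in replicate 3. The 4 rRNA genes in the table summed to 5915, 4033 and 1422 CPM in *ubp12*, against 1087, 1236 and 1101 CPM in the libraries labelled *ubp13*. Organelle genes took 1.52%, 1.07% and 0.500% of all counts in *ubp12*, against 0.342%, 0.394% and 0.329%. Both were highest in *ubp12* replicate 1. All 4 rRNA genes were among the 77 genes called higher with the block (log2FC 1.71 to 1.96), and none was called without it. For AT3G41979 and AT2G01020 the libraries of both genotypes overlapped. The part of rRNA content in the other differences was not tested. Without *ubp12* replicate 1, the jasmonate count at an unadjusted p was 7, the abscisic acid count 4, and the clock counts 7 higher and 5 lower. The jasmonate and abscisic acid counts also changed when other libraries were left out, as given above. Whether any of these changes relates to rRNA content was not tested.

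Further genes called only with the replicate block, named after their values were seen, were *WRKY40*, *CZF1* and *ERF11* among the higher ones and *QQS* and *DIN11* among the lower ones. *WRKY40*, a defence-related WRKY factor, had 68.5, 29.2 and 33.9 CPM in *ubp12*, against 14.2, 17.3 and 14.1 CPM in the libraries labelled *ubp13* (log2FC 1.53, adjusted p = 0.00335 with the block, 0.0725 without). *CZF1*, a CCCH zinc finger protein, had 103, 70.8 and 54.6 CPM in *ubp12*, against 37.4, 33.5 and 30.0 CPM (log2FC 1.18, adjusted p = 3.17e-04 with the block). *ERF11*, an ethylene response factor that acts as a repressor, had 6.25, 4.50 and 4.38 CPM in *ubp12*, against 1.32, 0.405 and 1.67 CPM (log2FC 2.19, adjusted p = 0.00355 with the block). All 3 were higher in each *ubp12* library. *QQS*, a regulator of starch content, had 3.99, 5.74 and 5.11 CPM in *ubp12*, against 9.33, 16.2 and 13.4 CPM (log2FC -1.39, adjusted p = 6.45e-04 with the block). *DIN11*, an oxygenase gene known as dark-inducible, had 0, 0.901 and 0.292 CPM in *ubp12*, against 2.97, 2.19 and 2.95 CPM (log2FC -2.71, adjusted p = 0.0258 with the block).

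Finally, the calls were set against genomic position and H2Aub1. Chromosomes 1 to 5 held 5, 1, 1, 2 and 2 of the higher genes and 0, 1, 4, 0 and 2 of the lower ones, *UBP12* and *UBP13* included. In the same order, the calls made up 0.107%, 0.0754%, 0.142%, 0.0753% and 0.0978% of the genes tested there. These shares lie near the 0.102% of all genes tested. Peaks of H2Aub1 increase in *ubp12/13* rosette leaves, called by the authors against wt, overlapped the first 1000 bp of 1 of the 18 called genes, *TPS03* (5.56%, exact 95% interval 0.141 to 27.3). Over all 17607 tested genes with a position, 319 had such a peak (1.81%), which lies within that interval. Among the 94 genes called with the block it was 9 (9.57%). The peaks come from the double mutant and another tissue, and H2Aub1 in the single mutants was not analysed here.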

How the data were processed

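RNA was sequenced from 3 *ubp12* libraries and 3 libraries labelled *ubp13*, described as biological replicates in the study. The authors trimmed reads with cutadapt, mapped them to TAIR10 with tophat and counted them per gene with HTSeq, and the values they deposited are raw counts without normalization. The peaks of H2Aub1 increase were called and merged by the authors, and the deposited score column holds a constant that was not used. Of 33602 gene IDs, 279 chloroplast or mitochondrial IDs were left out, and 32835 of the 33323 nuclear IDs are in the TAIR10.1 annotation of RefSeq, whose nuclear coordinates are those of TAIR10. The promoter and exon sequences were read from that genome.

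A gene was tested if its CPM exceeded 1 in 2 or more of the 6 libraries, in R 4.3.3 with edgeR 4.0.16 (TMM, quasi-likelihood F-test, Benjamini-Hochberg adjustment over all genes tested), *ubp12* over *ubp13* and without wt. A call required that the adjusted p was below 0.05 and that the log2FC was 1 or more in size. Every adjusted p comes from this test, with the replicate number as a block where so stated. The numbers were treated as pairing the libraries because each same-number correlation of deviations exceeded 0.1 (0.161, 0.101 and 0.223), for number 2 only narrowly. Other numbers gave -0.153 to 0.0260. Deviations from a genotype mean sum to 0 within the genotype, so the values for other numbers depend on the same-number ones and are no separate evidence of pairing. Log2 CPM for the principal components used a prior count of 2. Chi-square per degree of freedom between replicates was 5.81 to 13.2, above sampling noise. Depth was 6822401 to 12768034 nuclear counts. Python 3.11.15 was used for sequences and Matplotlib 3.10.9 for figures.

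Genes named were *UBP12*, *UBP13*, up to 12 calls in each direction with the largest change and without overlap between genotypes, up to 6 protein-coding calls in each direction with the highest level, list members that passed, and, where a direction had fewer than 10 calls, those with the smallest p up to 10. Members of lists and block calls named beyond this were chosen after their values were seen. The comparison and the gene lists were chosen with earlier results of these data known. Alternatives were RLE size factors, library totals, DESeq2 1.42.0, no filter on low counts, a filter of CPM over 1 in each of the 6 libraries, a common fit of 12 libraries, the replicate block, thinned counts, organelle genes kept, no fold minimum, leaving out single libraries, and for peaks an overlap of 500 bp, peaks of at least 1000 bp and the whole gene body. On simulated counts for this comparison (17620 genes), 43 of 50 genes changed by a log2 of 1.2, 49 of 50 by 1.5, 49 of 50 by 2 and 50 of 50 by 3 were called, with 4 false calls, and 0 calls when no gene was changed. The simulated noise was independent between libraries, without effects of replicate number or rRNA content. Changed genes were picked above a minimum mean level. These figures therefore do not measure how reliable the real calls are.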

Additional observations from a re-analysis of the deposited data

How the results depend on the processing

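All 18 calls were also made with RLE size factors, library totals, DESeq2, no filter on low counts and organelle genes kept, 17 with thinned counts, 14 with all 12 libraries in a common fit and 12 with CPM over 1 in all 6 libraries, which tests fewer genes. The number of genes higher in *ubp12* was 47 with DESeq2, 50 without a filter on low counts, 6 with CPM over 1 in all 6 libraries, 18 without a fold minimum and 3 to 36 with 1 library left out, against 11. The number of lower genes was 12 without a filter, 12 without a fold minimum and 5 to 13 with 1 library left out, against 7. The cause of these shifts was not tested. With the replicate block, the pairing of libraries by number gave 77 higher and 17 lower genes, among them all 18 calls made without it, so that the block added calls and ended none. Over the genes named by the rule and their alternatives, 276 values kept their side of the call threshold of adjusted p and fold, 36 lost it and none changed direction. *BXL2*, AT5G06980 and AT5G48490, below the fold minimum throughout, count among the 276 although their adjusted p was above 0.05 in some of them. The share of called genes with an H2Aub1 peak was 5.56% at each setting. The medians and counts of the lists under these alternatives were chosen after seeing the data. The median of the photosynthesis list was -0.07 with library totals. The libraries labelled *ubp13* were deeper, and thinning to the smallest total gave 16 higher and 9 lower genes.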
